A study of Sus scrofa with 6 samples.

Results

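The cells of the pig ileum at 14 and 21 days after birth were compared with each other, library against library, to describe which genes and which cells differed over the last week sampled. A cell was a barcode with at least 1000 unique molecular identifiers (UMIs, each standing for 1 captured transcript) and at least 500 genes. This gave 15956 cells on day 14 and 13818 on day 21, 29774 of the 76099 cells of the 6 libraries of the series. UMIs were summed over cells and given per 10000, and this value is called the level of a gene. Levels were read over all cells and in 3 groups chosen by gene counts. B cells had at least 2 UMIs of MS4A1, PAX5 and POU2AF1 together and none of CD3E and CD3G. They were split into cells without a UMI of TOP2A and PCLAF, which cells make while they copy and divide their genome, and cycling B cells with at least 2. T cells had at least 2 UMIs of CD3E and CD3G and none of MS4A1 and PAX5. These 7 genes are part of the rule, so their levels within the groups are no result.

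The ileum of the young pig carries a long continuous Peyer's patch, lymphoid tissue in which B cells expand in follicles soon after birth. In germinal centres and in such follicles, B cells divide rapidly and are held in this state by the repressor BCL6, while BACH2 holds back their turn into plasma cells. T cells of the gut lining kill infected cells or release cytokines such as IL22, which acts on the epithelium.

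The study sampled ileal mucosa from 5 large white piglets at each age, born to 3 sows and fed maternal milk, and took the tissue apart in EDTA and TrypLE. The labels give ileum and male sex for every library and the series' design line gives cecum, and the kit version differs between the labels and the methods. There was 1 library per age, so piglets, ages and runs cannot be told apart, no test was possible and no p-value is given. Intervals in parentheses are exact 95% intervals and cover counting error only. In sums over cells, fewer cells with a transcript and less of it per cell cannot be told apart.

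In total, 100348769 UMIs were counted in the day 14 library and 77391932 in that of day 21. A cell had 4560 and 3710.5 UMIs at the median, of which 4.65% and 6.25% were mitochondrial. The pair of libraries shared 68 cell barcodes, against 40 to 55 for each of them with an earlier library. The pair also had the most cells, 15956 and 13818 against 10836 to 12634 in the earlier libraries. The part of cell number in this count was not tested. Doublets were kept. B cells made up 91.1% and 93.0% of the cells. Epithelial markers had a summed level of 0.379 on day 14 and 0.0449 on day 21 for 8 of 8 listed genes, EPCAM among them at 0.0735 and 0.0019. Defining epithelial markers were thus at or near 0, although the tissue was scraped mucosa. Lists of stromal, endothelial, mast cell and NK genes each summed to at most 0.177 in both libraries.

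Most cells with over 8000 UMIs in the day 14 library had no UMI of the chromosome Y genes read, although the label gives male sex. A part of those of the day 21 library had none either. The 48 Y genes read here lie beyond 8500000 bp on that chromosome and leave out LOC110257905, the most abundant gene there. They had a summed level of 0.738 (0.720 to 0.756) on day 14 and 3.65 (3.60 to 3.70) on day 21. At days 0, 1, 3 and 7 it was 1.35, 3.05, 0.377 and 0.550. Among cells with over 8000 UMIs, 78.7% (77.2 to 80.2) had no Y UMI on day 14 and 25.5% (23.4 to 27.8) on day 21. Each of the 10 of these genes with at least 50 UMIs was higher on day 21 by 1.5-fold or more. LOC110257905 itself was at 2.26 and 7.21, and with it the summed level was 3.00 (2.96 to 3.03) and 10.9 (10.8 to 10.9), and 71.7% and 18.3% of the same deep cells had no Y UMI. Within groups, the 48 genes summed on day 14 to 2.17 (1.93 to 2.44) in T cells, 0.696 in B cells without cycling UMIs and 0.682 in cycling B cells. On day 21 they summed to 4.11, 4.32 and 3.06. What set the Y level, and its part in differences between T and B cells, was not tested. The gene counts, ranked genes, lists and shares were also read in the cells with a Y UMI alone. These were 14.7% of cells on day 14 and 58.7% on day 21, and their median depth was 5120 and 4086 UMIs. That reading was added after the data were seen.

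**Figure D1:**
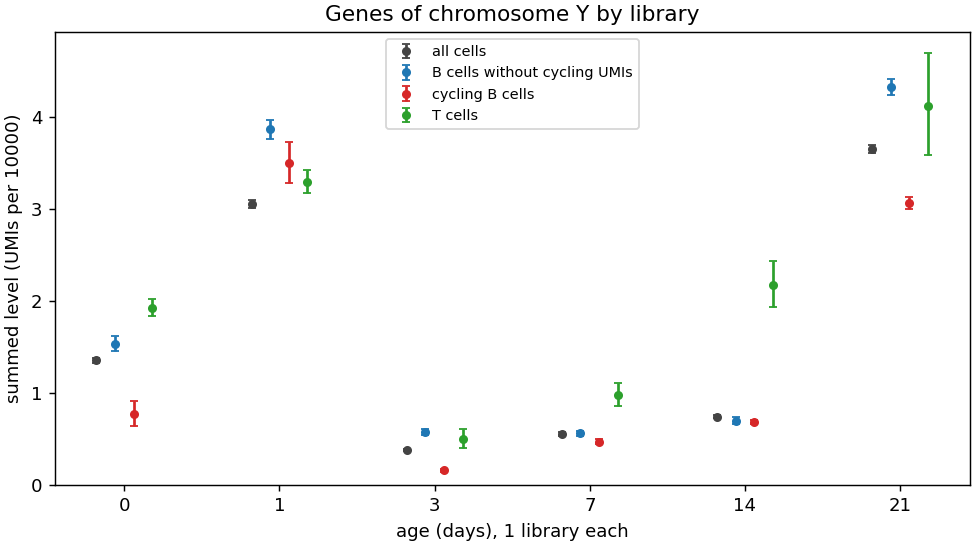
Summed level of 48 genes of chromosome Y (UMIs per 10000, vertical axis) in each library by age (days, horizontal axis), for all cells and the 3 groups. Points are values of 1 library and bars exact 95% counting intervals. The day 14 library sits at 0.738 over all cells and the day 21 library at 3.65.

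The share of B cells in cycle was lower on day 21. Cycling B cells were 7899 of 14529 B cells on day 14, 54.4% (53.6 to 55.2), and 4410 of 12854 on day 21, 34.3% (33.5 to 35.1). B cells without cycling UMIs made up 35.4% and 50.7%, and the rest had 1 cycling UMI. With every cell thinned to 1000 UMIs, the cycling share was 31.8% (30.9 to 32.8) and 15.4% (14.6 to 16.1). At days 0, 1, 3 and 7 it had been 5.27%, 7.04%, 21.6% and 26.4% unthinned, so day 14 was the highest of the 6 libraries in both readings. In cells with a Y UMI the share differed by -24.0 percentage points, against -20.1 in all cells.

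**Figure D2:**
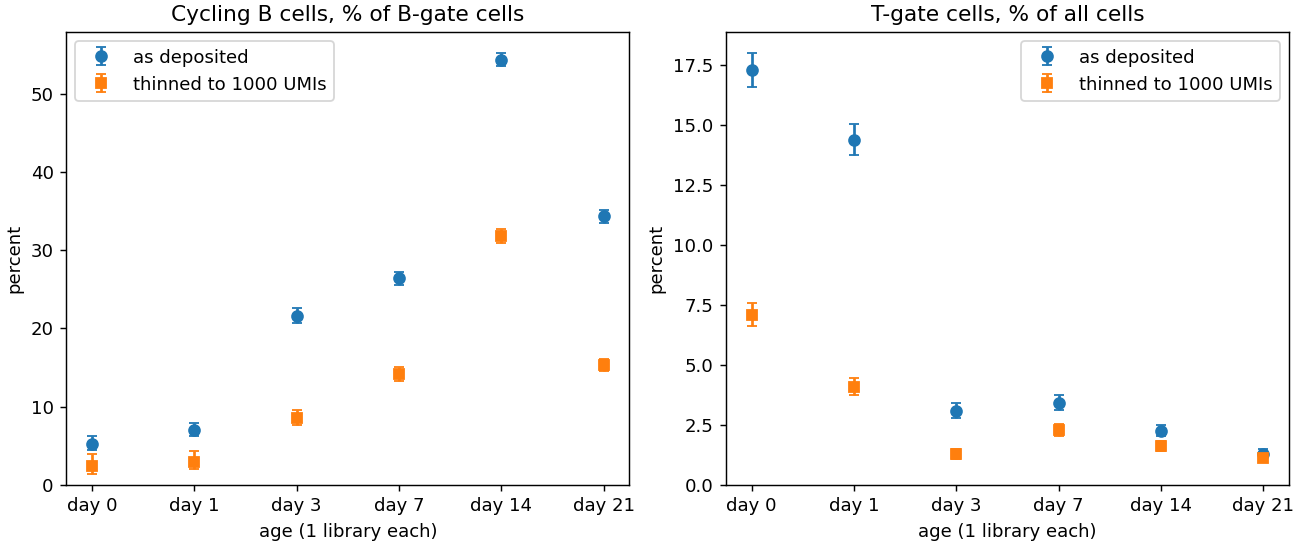
Share of cycling cells among B cells (left) and of T cells among all cells (right), in percent, for the libraries of 6 ages. Circles are values as deposited, squares values with each cell thinned to 1000 UMIs, and bars exact 95% intervals. The cycling share is 54.4% on day 14 and 34.3% on day 21.

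T cells were 357 of the cells on day 14, 2.24% (2.01 to 2.48), and 178 on day 21, 1.29% (1.11 to 1.49). After thinning, they were 1.60% (1.41 to 1.80) and 1.10% (0.933 to 1.29). Cells that met both the B and the T criteria in part numbered 273 and 268.

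Over all cells, 2812 genes had a mean level of at least 0.5 in the pair of libraries. Of them, 54 (1.92%) were at least 1.5-fold higher and 93 (3.31%) at least 1.5-fold lower on day 21, and the median fold of all 2812 was 0.998. In either direction this was 5.23%. The same count was 17.9% between days 0 and 1, 38.5% between days 1 and 3, 11.9% between days 3 and 7 and 14.5% between days 7 and 14. The last week was therefore the interval with the lowest share of genes past 1.5-fold over all cells. B cells were 21.0%, 30.2%, 69.9% and 80.4% of cells at days 0, 1, 3 and 7, and the part of this mix was not tested. In T cells 17.3% passed in the last week. This was 16.4% between days 0 and 1, 33.1% between days 1 and 3, 27.7% between days 3 and 7 and 10.6% between days 7 and 14. T cells numbered 1872, 1653, 349, 432, 357 and 178 from day 0 to day 21, so counting error differed between these intervals. In order of age, the shares were 8.03%, 23.5%, 13.2%, 9.36% and 6.72% in B cells without cycling UMIs. In cycling B cells they were 22.4%, 13.4%, 12.4%, 6.25% and 2.55%. In the last week, 85 of 2710 genes (3.14%) were higher and 97 (3.58%) lower among B cells without cycling UMIs, with a median fold of 1.06. In cycling B cells these were 35 (1.24%) and 37 (1.31%) of 2821, with a median of 0.984, and in T cells 232 (8%) and 269 (9.28%) of 2899, with a median of 0.998. The T cell counts rest on 357 and 178 cells, and thus on the widest counting error. A gene under 0.5 in 1 of the 2 libraries passed the filter through the other, so its direction was built in, which holds for every tested gene named below with such a level.

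**Figure D3:**
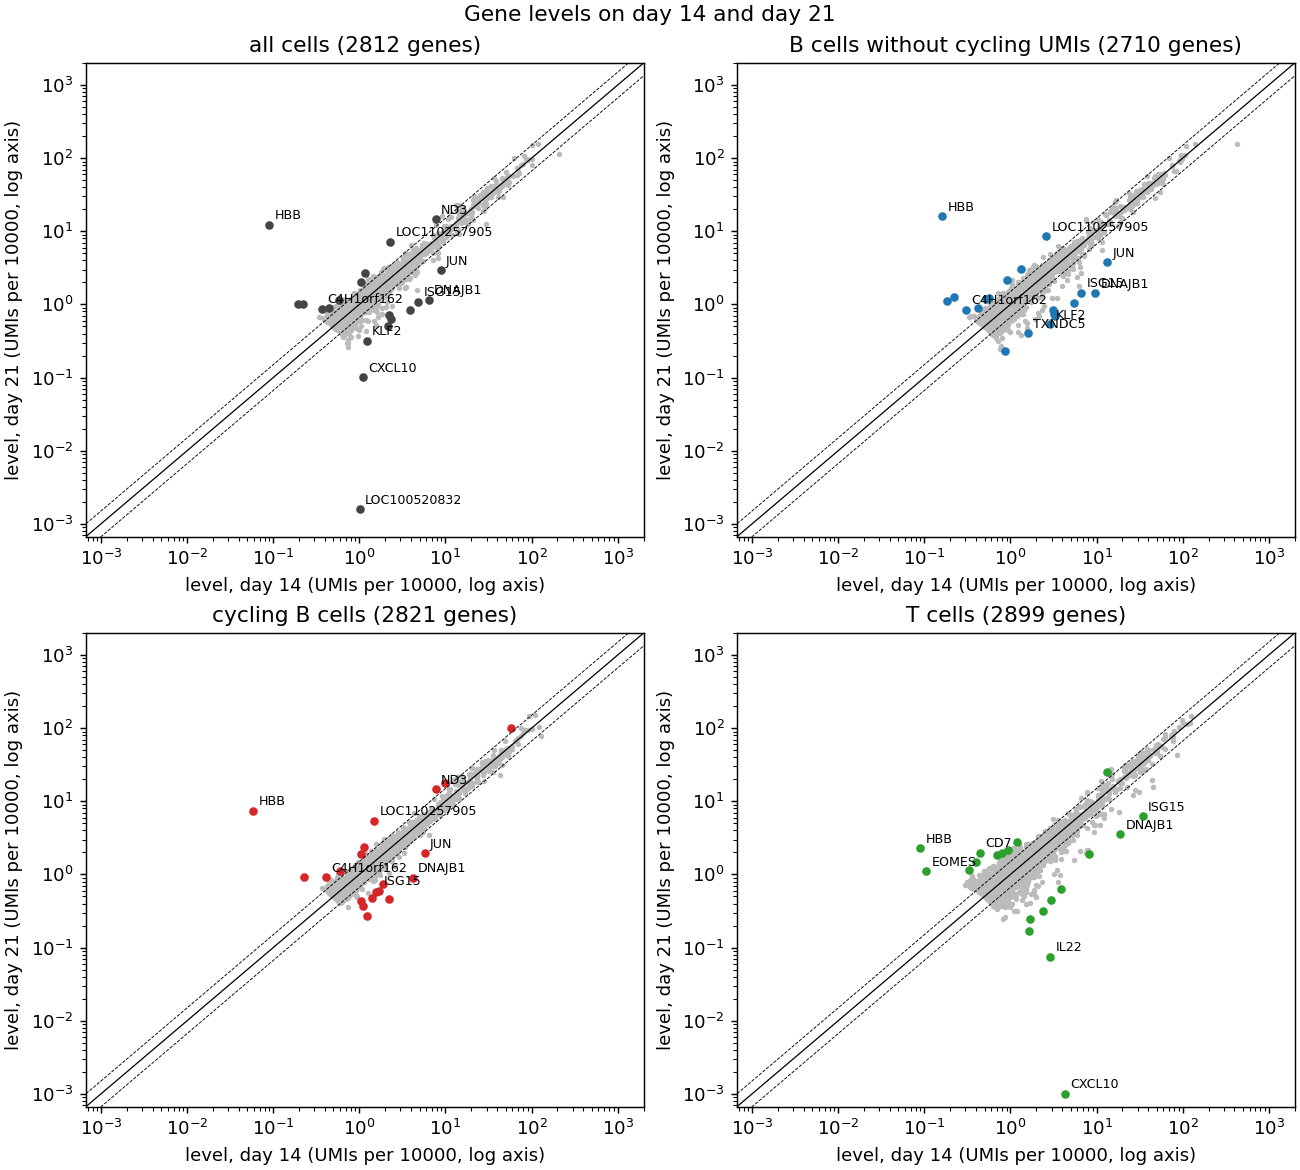
Level of each gene with a mean level of at least 0.5 on day 14 (horizontal axis) and day 21 (vertical axis), in UMIs per 10000 on log axes, in all cells and the 3 groups. Grey points are genes, coloured points the 20 genes named by rank in each group. The solid line marks equal levels and dashed lines 1.5-fold. A level of 0 is drawn at 0.001, as for CXCL10 in T cells on day 21. HBB lies highest above the line and DNAJB1 and ISG15 lie below it in all 4 panels.

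The heat shock gene DNAJB1 was lower on day 21 in every group, and so were HSP70.2 and HSPA6, which are not on the heat shock list. DNAJB1, a co-chaperone of HSP70, had a level of 9.62 (9.48 to 9.76) on day 14 and 1.43 (1.38 to 1.48) on day 21 in B cells without cycling UMIs, 4.15 and 0.904 in cycling B cells, and 18.8 (18.0 to 19.5) and 3.57 (3.08 to 4.11) in T cells. The folds of day 21 over day 14 were 0.148, 0.218 and 0.190. DNAJB1 was thus lower in all 3 groups by more than 4-fold, and its levels in B cells without cycling UMIs had been 3.75, 2.36, 5.64 and 13.7 at days 0, 1, 3 and 7. HSP70.2, an inducible HSP70 chaperone, and HSPA6, its close relative, stood at 5.47 and 3.25 on day 14 and at 1.06 and 0.733 on day 21 in the same B cells. They were at 2.21 and 1.24 on day 14 and 0.459 and 0.271 on day 21 in cycling B cells, and at 18.1 and 7.78 and then 7.24 and 2.14 in T cells. Such related chaperone genes can share reads, so their split is uncertain. Of all tested genes, 3.58% were lower by 1.5-fold in B cells without cycling UMIs, 1.31% in cycling B cells and 9.28% in T cells. Of the heat shock list, none of the tested genes was higher by 1.5-fold in any group. Lower were 5 of 10 in B cells without cycling UMIs, 1 of 10 in cycling B cells and 10 of 11 in T cells, with median folds of 0.71, 0.81 and 0.43. In cycling B cells DNAJB1 was the listed gene that passed. In T cells these included BAG3, a co-chaperone, at 2.37 and 0.316. Of the 10, BAG3 alone was under 0.5 on day 21. In cells with a Y UMI the medians were 0.628, 0.825 and 0.360, and the fold of BAG3 in T cells was 0.0293 against 0.134. Summed over all 12 listed genes in the files, with no filter, the levels were 87.6 and 56.3, 86.0 and 68.1, and 171 and 70.3 in the same order of groups.

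Immediate early genes are switched on within minutes of a stimulus or of handling. Most of those tested in both groups of B cells and 7 of 16 in T cells were lower on day 21 as well. The genes tested differed between groups, and no difference between groups was tested. JUN, a part of the transcription factor AP-1, stood at 13.4 (13.2 to 13.5) on day 14 and 3.77 (3.69 to 3.85) on day 21 in B cells without cycling UMIs, at 5.74 and 1.97 in cycling B cells and at 27.7 and 14.2 in T cells. Its partner FOS was at 3.00 and 1.24 in B cells without cycling UMIs, a fold of 0.411, but at 6.49 and 5.21 in T cells, a fold of 0.802 (0.699 to 0.919) that did not pass 1.5-fold. DUSP1, a phosphatase that shuts off MAP kinases, was at 3.15 and 0.833 in B cells without cycling UMIs. Of all tested genes, 3.58% were lower in B cells without cycling UMIs, 1.31% in cycling B cells and 9.28% in T cells. Of the list, 10 of 14 genes were lower in B cells without cycling UMIs, 6 of 9 in cycling B cells and 7 of 16 in T cells, with median folds of 0.58, 0.53 and 0.72. Of these, IER5 in B cells without cycling UMIs and FOS and PPP1R15A in cycling B cells were under 0.5 on day 21, so they passed the filter through day 14. No listed gene was higher by 1.5-fold in the 2 groups of B cells. In T cells 1 was, IER2, at 0.532 and 0.874, while 8% of all genes tested in T cells were higher. Summed over all cells, the list stood at 105, 89.4, 47.5, 62.7, 32.3 and 16.4 from day 0 to day 21, the day 21 library being the lowest. In cells with a Y UMI the median folds of the list were 0.463, 0.486 and 0.659 in the same order of groups. The mitochondrial share also differed between these libraries, and its part was not tested.

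Most tested interferon-stimulated genes were lower on day 21 in T cells and in B cells without cycling UMIs. The genes tested differed between groups, so the medians below do not compare the same genes. ISG15, a ubiquitin-like protein made under interferon, was at 34.3 (33.3 to 35.3) on day 14 and 6.21 (5.57 to 6.92) on day 21 in T cells, at 6.61 and 1.45 in B cells without cycling UMIs and at 1.67 and 0.601 in cycling B cells. IFI6, a further interferon target, was at 45.5 and 15.6 in T cells. Of all tested genes, 9.28% were lower in T cells, 3.58% in B cells without cycling UMIs and 1.31% in cycling B cells. In T cells 17 of 19 tested genes of the list were lower, none higher, and the median fold was 0.34. Of the 17, 8 were under 0.5 on day 21 and had passed the filter through day 14. MX1, a GTPase that blocks viruses, was at 8.16 and 1.88, RSAD2, also called viperin, at 2.93 and 0.447, and the RNA sensor DDX58 at 1.70 and 0.242. In B cells without cycling UMIs 6 of 8 genes were lower, IFI44L and IRF7 having passed the filter through day 14, with a median of 0.51, and in cycling B cells 2 of 5, with a median of 0.90. The summed level in T cells was 14.6, 23.9, 16.6, 56.8, 126 and 40.8 from day 0 to day 21, so day 14 was the highest library and day 21 stayed above days 0, 1 and 3. This sum takes in all 28 listed genes in the files, with no filter. In barcodes with 100 UMIs or fewer, read as free RNA, the list had a summed level of 20.6 and 7.85. The part of free RNA in the levels of cells was not tested. In cells with a Y UMI the median folds were 0.293 in B cells without cycling UMIs, 0.382 in cycling B cells and 0.191 in T cells, further from 1 than in all cells of these groups. Thinning moved the fold of ISG15 in T cells from 0.181 to 0.305, with RSAD2 at 0.253 and DDX58 at 0.318. With 3 UMIs for the gates the fold of RSAD2 went the other way, to 0.0612 from 0.152.

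**Figure D4:**
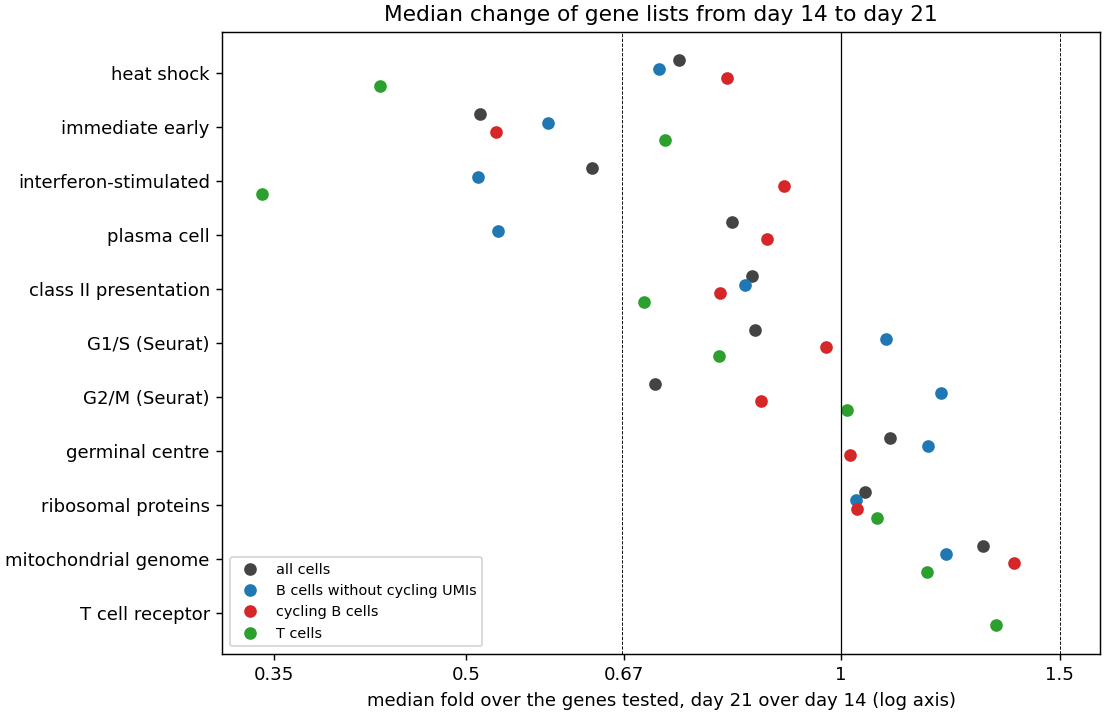
Median fold of day 21 over day 14 (horizontal log axis) over the tested genes of 11 lists (vertical axis), for all cells and the 3 groups, the genes of the rule being left out within groups. A point is drawn where at least 4 genes were tested, the solid line marks 1 and dashed lines 1.5-fold in either direction. Heat shock and interferon-stimulated genes in T cells lie farthest to the left, at 0.43 and 0.34. Points of a list rest on different genes in each group, some of which passed the filter through a single library.

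Among B cells without cycling UMIs, 4 of 11 tested germinal centre genes were higher and 5 of 8 tested plasma cell genes lower on day 21. Of all genes tested in these cells, 3.14% were higher and 3.58% lower. BCL6, which keeps B cells in the germinal centre, was at 1.61 on day 14 and 2.59 on day 21, a fold of 1.61 (1.55 to 1.69). NEIL1, a glycosylase of base excision repair, was at 1.39 and 2.32, and LMO2, a transcriptional adaptor, at 1.02 and 1.67. None of the 11 germinal centre genes was lower by 1.5-fold, 2 had a fold below 1, and the median was 1.17 against 1.06 for all genes. BACH2, the repressor of plasma cell fate, was at 1.88 and 3.43. In cycling B cells BCL6 was at 2.04 and 2.54 and no gene of the list passed 1.5-fold. BCL6 was thus above its day 14 level in both groups of B cells, past 1.5-fold in those without cycling UMIs alone. Over all cells 1 of 11 tested germinal centre genes was higher, NEIL1, and the median fold was 1.09. Of all genes tested over all cells, 1.92% were higher.

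On the plasma cell side, TXNDC5, a protein-folding enzyme of the endoplasmic reticulum, was at 1.59 on day 14 and 0.404 on day 21 in B cells without cycling UMIs, a fold of 0.255 that thinning moved to 0.472. XBP1, the transcription factor of the secretory programme, was at 0.777 and 0.273, and JCHAIN, which links IgA and IgM units, at 5.17 and 3.23. None of the 8 tested genes was higher and 5 were lower, against 3.58% of all genes tested in these cells, and the median fold was 0.53. Of the 5 lower genes, 3 were under 0.5 on day 21 and had passed the filter through day 14, TXNDC5 and XBP1 among them. The sum over all 12 genes in the files was 28.4 and 18.7. In cycling B cells 0 of 4 tested plasma cell genes passed 1.5-fold, with a median of 0.87. Over all cells 2 of 6 were lower, TXNDC5 and FKBP11, both under 0.5 on day 21, with a median of 0.82. Of all genes tested over all cells, 3.31% were lower. In B cells without cycling UMIs LOC100152327 was at 430 and 154, on day 14 the highest level of all genes tested in them. It is annotated at chr14:48800248-49001525 of Sscrofa11.1, in a window with 4 V segments and 1 C region. CD74, the invariant chain of class II molecules, was at 55.1 and 34.8, the sole member of 12 tested class II genes past 1.5-fold in these cells.

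Of the naive and recirculating B cell list, 4 genes were tested in these cells, of which KLF2 was lower and BACH2 higher by 1.5-fold. KLF2, which keeps lymphocytes on the move, was at 2.87 (2.79 to 2.95) and 0.532 (0.502 to 0.563) in B cells without cycling UMIs, after 10.8, 4.80, 4.44 and 7.97 at the earlier ages. CD69, an activation marker that retains cells in tissue, was at 0.871 and 0.228, and RGS1, which dampens chemokine signals, at 3.30 and 0.693. KLF2, CD69 and RGS1 were all lower, although they mark different states. Cells were therefore also split by germinal centre, recirculating and plasma cell genes, a split made after the data were seen. Cells with germinal centre genes were 22.2% (21.1 to 23.4) of B cells without cycling UMIs on day 14 and 33.7% (32.6 to 34.9) on day 21, those with recirculating genes 4.43% and 1.27%, and those with plasma cell genes 3.42% and 2.44%. Thinned to 1000 UMIs these were 42.6% and 51.7%, 3.59% and 0.769%, and 9.05% and 6.15%. Within each of the 3 classes DNAJB1 was lower on day 21, at 5.09 and 0.752 in germinal centre, 29.8 and 6.47 in recirculating and 10.4 and 2.49 in plasma cell classes. ISG15 was at 1.99 and 0.663, 22.5 and 3.74, and 13.2 and 4.42 in the same order. The 3 classes together held 30.1% of B cells without cycling UMIs on day 14 and 37.5% on day 21, and DNAJB1 and ISG15 were read in them because they had been lower in the whole group.

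Over all cells, 14 of 37 tested genes of the G2/M phase were lower on day 21 by 1.5-fold, none was higher and the median fold was 0.71. Of the 14, NDC80, CCNB2, CDCA3 and AURKA were under 0.5 on day 21 and had passed the filter through day 14. Of 30 G1/S genes 1 was lower, with a median of 0.85, while 3.31% of all genes were lower over all cells. Within cycling B cells, leaving out TOP2A, which is part of the rule, 2 of 44 G2/M genes were lower and their median was 0.86, and none of 33 G1/S genes passed 1.5-fold, with a median of 0.97. CDK1, the kinase that drives mitosis, was at 1.20 and 0.610 over all cells and at 1.75 and 1.15 in cycling B cells, and AURKB, a kinase of chromosome segregation, at 1.62 and 0.795 and at 2.35 and 1.51. Among B cells without cycling UMIs, 3 of 12 G2/M genes were higher and 1 lower: CENPF, a kinetochore protein, was at 0.918 and 2.14, CENPE, a kinetochore motor, at 0.712 and 1.43, BIRC5 at 0.522 and 0.801, and CKS2 was the lower gene. The cells without cycling UMIs were defined by 0 UMIs of 2 genes only. Of all genes tested in them, 3.14% were higher and 3.58% lower, and in cycling B cells 1.31% were lower.

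**Figure D5:**
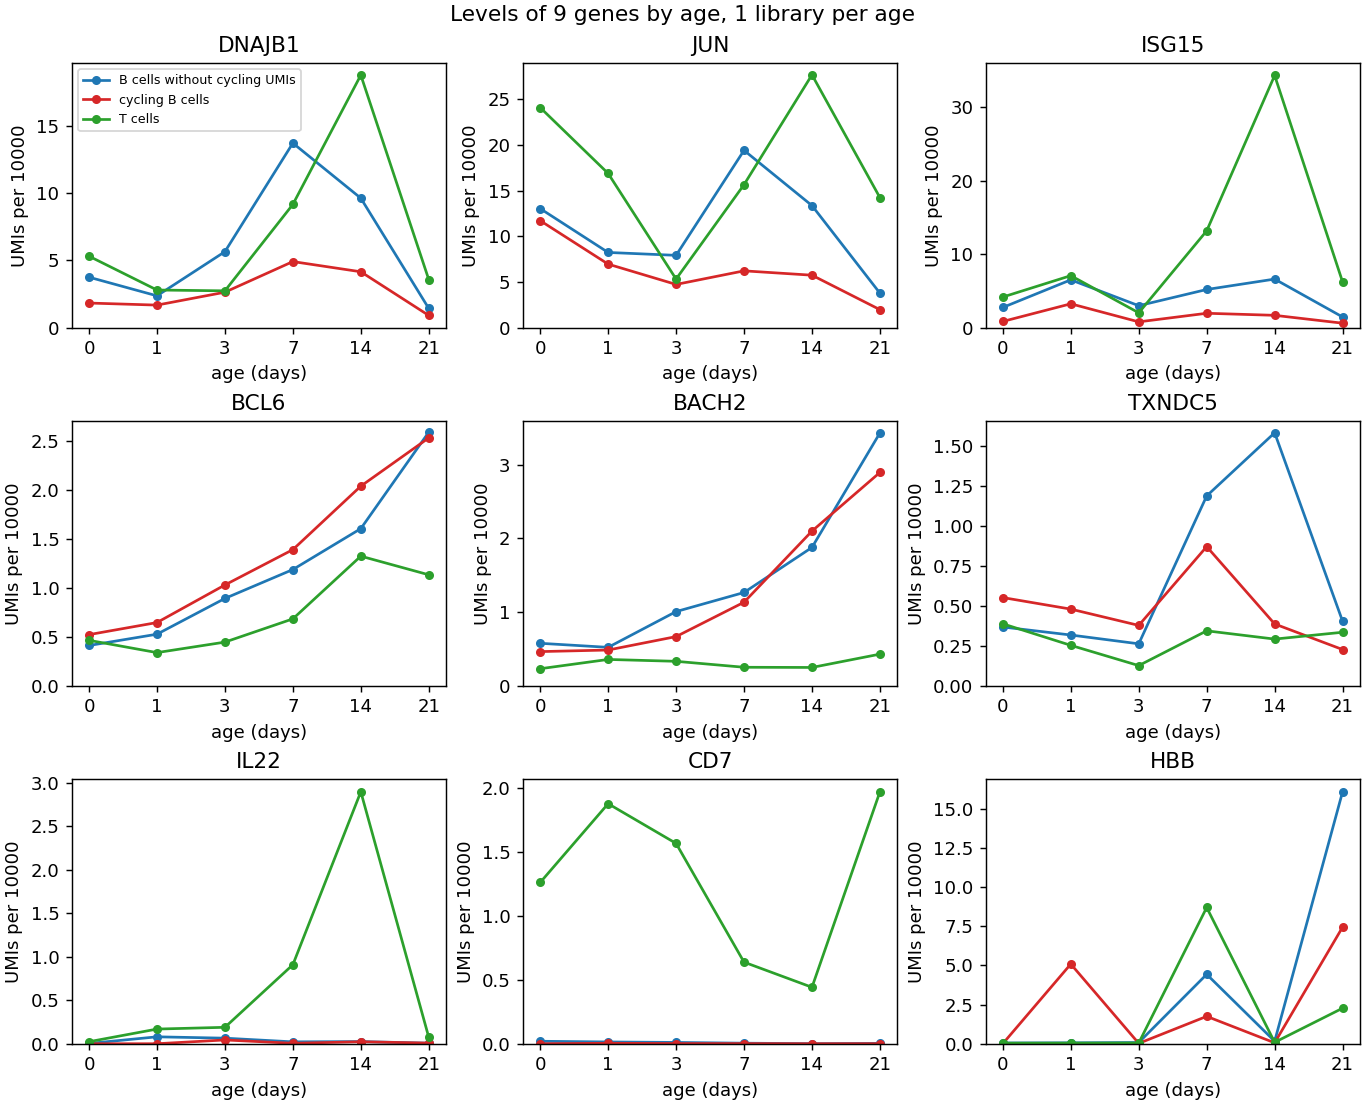
Level (UMIs per 10000, vertical axes) of 9 genes in the libraries of 6 ages (days, horizontal axes) in B cells without cycling UMIs, cycling B cells and T cells. Each point is 1 library and lines join points of a group. DNAJB1 and ISG15 in T cells are highest on day 14, BCL6 and BACH2 in B cells are highest on day 21.

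IL22, a cytokine, and CXCL10, a chemokine made under interferon, were lower in T cells on day 21. IL22 was at 2.90 (2.62 to 3.20) on day 14, from 26 of 357 cells, and at 0.0744 (0.0203 to 0.191) on day 21, from 2 of 178 cells. Cells with an IL22 UMI were 7.28% and 1.12% of T cells as deposited, 5.32% (3.23 to 8.19) and 0.562% (0.0142 to 3.09) after thinning, and 0.389% and 0.215% of B cells without cycling UMIs, so the day 21 interval takes in the B cell value. The fold of IL22 was 0.0257, after thinning 0.0859, in T cells with a Y UMI 0.00854 and without cells with an HBB UMI 0.00799. CXCL10 had 575 UMIs in T cells on day 14, a level of 4.31, and none on day 21. The day 14 level was 77.2-fold above a floor of 3 UMIs on day 21, which is an assumed value and not a counting interval. The 0 of 178 cells allow up to 2.05% of T cells with a CXCL10 UMI, which bounds detection and not expression. CXCL10 was also found in 3.93% of B cells without cycling UMIs on day 14 and 0.767% on day 21. IL7R, the receptor for the survival cytokine IL7, was at 1.69 and 0.409. IL22, CXCL10 and IL7R passed the filter on levels through day 14.

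Higher in T cells were EOMES, a transcription factor of cytotoxic lymphocytes, at 0.105 (0.0573 to 0.176) on day 14 and 1.12 (0.852 to 1.44) on day 21, CD7, a surface protein of T and NK cells, at 0.442 (0.336 to 0.570) and 1.97 (1.61 to 2.39), and GZMH, a granzyme of cytotoxic granules, at 1.21 and 2.75. In T cells with a Y UMI the fold of GZMH was 1.31, no longer past 1.5-fold, and that of EOMES 6.47 against 10.6. Thinning moved the fold of GZMH from 2.28 to 1.51. Cells with an EOMES UMI were 2.80% (1.35 to 5.09) and 13.5% (8.83 to 19.4), after thinning 0.840% and 6.74%, with 0.0389% and 0.138% in B cells without cycling UMIs. For CD7 they were 10.4% and 28.7%, after thinning 4.76% and 16.9%, with 0.0194% and 0.0920% in B cells without cycling UMIs. GZMB, another granzyme, went the other way, at 3.71 and 2.31, so the cytotoxic list had 2 of 10 genes higher, 1 lower and a median fold of 1.07. Of all genes tested in T cells, 8% were higher and 9.28% lower, so these small counts do not set the list apart. EOMES and CD7, under 0.5 on day 14, had passed the filter through day 21, so their place among the higher genes was built in. Over all 19 listed genes, with no filter, the summed level was 104 and 103. CD7 had been at 1.26 to 1.88 at days 0 to 3, and at 0.639 on day 7, so day 14 was the lowest library for this gene. Without CD3E and CD3G, which are part of the rule, the T cell receptor list had 4 of 9 genes higher, none lower and a median of 1.33. Among the higher genes were the kinase FYN and the surface proteins CD2 and CD6. A T cell needed at least 2 UMIs of CD3E and CD3G, and the median depth of T cells was 2958 UMIs on day 14 and 2587 on day 21. The part of this rule in the levels of the list was not tested. In the same T cells 3 of 7 tested genes of B cell receptor signalling were higher, CD79B, PRKCB and MALT1, with a median of 1.49. CD79B, at 0.419 and 0.633, had passed the filter through day 21. The sum of 7 B cell markers, of which MS4A1 and PAX5 are at 0 by the rule, was 0.592 and 1.02, and that of 9 myeloid genes 2.88 and 0.986. Their part in the T cell differences was not tested. Cells with CD4 were 12.3% and 13.5%, and cells with CD8A or CD8B 33.3% and 31.5%, with intervals that overlap.

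A set of genes was higher in most or all groups. LOC110261249, an unnamed gene on chromosome 6, was at 1.18 and 2.66 over all cells, with folds of 2.12 to 2.34 in the 3 groups. C4H1orf162 was at 0.368 and 0.878 and WDR77, a partner of the methyltransferase PRMT5, at 0.587 and 1.16 over all cells. They lie close together on chromosome 4, at 108875702 to 108886098 and 108907192 to 108915594 of Sscrofa11.1, with ATP5F1 between them. In cells with a Y UMI their folds were 1.53 and 1.34 over all cells, against 2.38 and 1.97, and in cycling B cells 1.27 and 1.22. In B cells without cycling UMIs with a Y UMI they were 2.51 and 1.36, against 2.81 and 2.16. WDR77 thus no longer passed 1.5-fold in these 3 readings, and C4H1orf162 not in cycling B cells alone. In T cells WDR77 was at 0.509 and 0.316. Of 12 tested mitochondrial genes, all were above 1 in fold over all cells, 3 past 1.5-fold, ND3 at 7.71 and 14.6 among them. Of all genes tested over all cells, 1.92% were higher by 1.5-fold. The ribosomal protein RPS27 was at 13.1 and 25.5 in T cells, and 71 of 75 ribosomal protein genes over all cells did not pass 1.5-fold. ND3 and RPS27 were higher by at least 1.5-fold in all 3 groups, while their lists had medians of 1.30 and 1.05 over all cells.

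Haemoglobin beta, HBB, was higher in all groups, at 0.0898 and 12.3 over all cells. In B cells without cycling UMIs its fold was 100.1, and 38.7 after thinning. It came from few barcodes: on day 21, 109 cells with at least 10 HBB UMIs held 97.2% of the 77992 HBB UMIs. The B cell criteria were met by 93.0% of all day 21 cells and by 93.6% of these 109 cells. These cells had HBM, an alpha-like haemoglobin gene, at 11.3 and ALAS2, the first enzyme of red cell haem synthesis, at 4.43. Barcodes with 100 UMIs or fewer had HBB at 3.02 and 38.0. LOC100520832 on chromosome 3 was at 1.01 on day 14, with 811 of its 9073 UMIs in a single cell and the rest in 209 others, and at 0.00158 on day 21.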

How the data were processed

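Droplet-based scRNA-seq counts of ileal cells were used from 6 libraries, 1 per age. The authors counted UMIs with Cell Ranger 3.1.0, whose aligner is STAR, against Sscrofa11.1 (susScr11), and deposited raw counts per gene and barcode, unfiltered. All 20648 symbols were found in the RefSeq table of that assembly, from which positions were taken.

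Cells, gates and levels were made as given in the report, with Python 3.11.15, numpy 2.4.6, scipy 1.17.1 and pandas 2.3.3. A gene was read with a mean level of at least 0.5 over days 14 and 21, and past 1.5-fold counted as changed. Levels have exact Poisson intervals, folds exact conditional binomial intervals and shares Clopper-Pearson intervals at 95%. Since there was 1 library per age, no test was run. Named genes are, per group, the 10 higher and 10 lower genes whose interval bound nearest 1 lies farthest from it, plus genes of the lists and gates. LOC100152327, SOX4 and ATP5F1 fall outside this rule and were taken up after their values were seen. The comparison, its members and the lists were chosen with earlier results of these data known. Cells with germinal centre, recirculating or plasma cell genes, the cells with a Y UMI and the cells without HBB were chosen after the data were seen.

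Alternatives changed the scaling (TMM of edgeR 4.0.16 in R 4.3.3, or totals without mitochondrial UMIs), the filter on levels, the fold, the cell limits, the gates, shared barcodes, the deepest 5% of cells and depth. The computation was checked on simulated counts. Free RNA was read in barcodes with 100 UMIs or fewer. Some results are not reported here.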

Additional observations from a re-analysis of the deposited data

Results flagged for a closer look

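Some genes appeared in the barcodes with 100 UMIs or fewer, which are no cells and were read as free RNA, at a level at least 5-fold higher on day 21 by the lower bound of the counting interval. They were DCN, a proteoglycan of connective tissue, at 0.0101 on day 14 and 1.95 on day 21, FN1, the matrix protein fibronectin, at 0.0588 and 2.61, MT-2B at 0.160 and 3.28, S100A6 at 0.503 and 7.71, CXCL14 at 0.0872 and 1.43, S100A4 at 0.331 and 2.77, CRYAB at 0.292 and 2.29, LGALS3 at 0.428 and 2.58, LOC100621400 at 0.138 and 0.950, and HBB at 3.02 and 38.0. In cells DCN was at 0.00167 and 0.000632, FN1 at 0.00524 and 0.00221 and S100A6 at 0.0658 and 0.0171, so these genes were near 0 in both libraries of cells. HBB was higher in cells too, at 0.0898 and 12.3, and LOC100621400 was at 0.0235 and 0.0251 in cells. Where the RNA in these barcodes came from was not tested.

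SOX4, a transcription factor of developing lymphocytes, went in opposite directions in the 2 lymphocyte groups. In T cells its fold of day 21 over day 14 was 2.09 (1.46 to 3.00), from 0.524 to 1.10, and in B cells without cycling UMIs it was 0.553, from 0.688 to 0.381. With 1 library per age this difference was not tested.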

How the results depend on the processing

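No paired analysis was possible because each age has 1 library. Across the alternatives for the genes named by rank, 722 of 935 folds stayed within the counting interval of the reported fold, 211 left it in the same direction and 2 reversed. Of 517 list medians 484 moved by little and 33 by more, none of those past 1.5-fold reversing. The 2 that reversed were LOC110257905, a gene of chromosome Y, in cells with a Y UMI alone, with folds of 0.958 over all cells and 0.776 in B cells without cycling UMIs. Counts of genes higher and lower on day 21 depended on the filter and the fold. With a mean level of at least 1 they were 24 and 48 over all cells, 42 and 58 in B cells without cycling UMIs, 17 and 21 in cycling B cells and 73 and 128 in T cells; with at least 0.2 they were 115 and 174, 174 and 206, 79 and 67, and 690 and 675. With no filter they were 2159 and 3209, 2481 and 2895, 2326 and 2606, and 2465 and 3259, where low counts enter. At 2-fold they were 6 and 31, 13 and 36, 5 and 13, and 47 and 77. Thinning to 1000 UMIs gave 67 and 58 in cycling B cells and 529 and 420 in T cells, with fewer UMIs behind each gene. In cells with a Y UMI, they were 86 and 138 over all cells, 151 and 145 in B cells without cycling UMIs, 36 and 48 in cycling B cells and 340 and 332 in T cells. The B cell share differed by 1.97 percentage points, by -0.594 with at least 500 UMIs and 200 genes, 3.29 after thinning, 1.08 with 3 UMIs for the gates and 13.0 in cells with a Y UMI. The T cell share differed by -0.949, by -0.464 after thinning and by -4.93 in cells with a Y UMI, and the cycling share of B cells by -20.1, -16.8 and -24.0. The causes were not tested. TMM moved all folds by 0.974 to 0.999. Depth limits T cells most, with 1335264 and 537512 UMIs in all.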

Other observations

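Further lists had no tested gene past 1.5-fold over all cells. B cell receptor signalling genes summed to 39.1 on day 14 and 40.9 on day 21, class I presentation genes to 23.0 and 21.3, uracil and mismatch repair genes to 18.6 and 17.2, ribosome biogenesis genes to 32.4 and 30.6, and glycolysis genes to 59.1 and 48.9. Of 11 tested glycolysis genes 9 had a fold below 1, and the median was 0.80. In T cells, 5 of 11 tested ribosome biogenesis genes were lower by 1.5-fold on day 21, MRTO4 having passed the filter through day 14, and none was higher. Of the class II genes 4 of 8 were lower, CD74 among them at 14.6 and 7.85, while 9.28% of all genes tested in T cells were lower. In the same T cells the dendritic cell list summed to 1.57 and 0.726 and the myeloid list to 2.88 and 0.986. Their part in the class II levels was not tested.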
